A study of Mus musculus with 20 samples.

Results

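The genes described here are the semaphorins, the plexins and the neuropilins, a family of guidance ligands and their receptors, in mouse dendritic cell progenitors and the dendritic cells made from them. Members were all genes whose symbol on the array begins with Sema or Plxn followed by a digit or a letter from A to D, with Nrp1 and Nrp2. This gave 32 of the 18193 genes with a symbol: 20 semaphorins, 9 plexins, 2 neuropilins and Plxna4os1, an antisense transcript that matches only by its name. Each gene was read from 1 probe set, the one with the highest mean over all 20 arrays.

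RNA came from C57BL/6 mouse bone marrow, on 2 arrays per group. Multipotent progenitors (MPP) and common dendritic cell progenitors (CDP) were amplified in culture, and conventional (cDC) and plasmacytoid (pDC) dendritic cells were grown from amplified progenitors. A further group, in vivo CDP, was isolated from bone marrow without amplification. In a separate series, amplified CDP were untreated (0 h) or treated with transforming growth factor β1 (TGF-β1) for 4, 8, 12 or 24 h. How much TGF-β1 was added, and how many mice or cultures were used, is not known from the labels. All CDP of 4 to 24 h were treated, so the effects of TGF-β1 and of time in culture cannot be told apart. The labels do not say that the paired arrays of a group came from separate cultures or animals, so each p-value measures only the spread between these arrays.

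Semaphorins of class 3 are secreted, those of classes 4, 5 and 6 span the membrane, and Sema7a is held by a glycolipid (GPI) anchor. They bind plexins, whose cytoplasmic domain acts on small GTPases and so changes adhesion and the cytoskeleton. Neuropilins are co-receptors that most class 3 semaphorins need, and they also bind VEGF. In the immune system, semaphorins of classes 4, 6 and 7 act between dendritic cells and lymphocytes and in cell migration.

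The 250 bases before 1 transcript start of each of 5 genes, the first listed in RefSeq's promoter table, are printed here because these genes carry the changes that follow. Nrp1, Sema4b and Sema6d were higher after 24 h of TGF-β1, and Sema4c and Sema7a were higher in both kinds of dendritic cell than in CDP. The sequences are RefSeq's on build GRCm38.p6, written 5′ to 3′ on the gene's own strand: Nrp1 at chr8:128358823-128359072 (+), Sema4b at chr7:80186620-80186869 (+), Sema6d at chr2:124089719-124089968 (+), Sema4c at chr1:36558382-36558631 (-) and Sema7a at chr9:57939862-57940111 (+). RefSeq's annotated gene begins further upstream for Nrp1, Sema4c, Sema6d and Sema7a, so their windows lie within it, that of Sema6d only in part. Capitals mark the E-box CANNTG, the letters bound by basic helix-loop-helix factors, among them the plasmacytoid factor Tcf4.
Nrp1: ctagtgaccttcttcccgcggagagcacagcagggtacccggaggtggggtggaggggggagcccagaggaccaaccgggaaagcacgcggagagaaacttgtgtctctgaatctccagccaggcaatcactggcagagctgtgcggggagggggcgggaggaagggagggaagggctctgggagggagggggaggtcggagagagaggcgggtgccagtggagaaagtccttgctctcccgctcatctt
Sema4b: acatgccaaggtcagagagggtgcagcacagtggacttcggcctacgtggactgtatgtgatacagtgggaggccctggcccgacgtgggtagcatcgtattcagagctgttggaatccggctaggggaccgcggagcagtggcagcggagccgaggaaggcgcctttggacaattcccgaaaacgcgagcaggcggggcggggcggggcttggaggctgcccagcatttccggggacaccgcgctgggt
Sema6d: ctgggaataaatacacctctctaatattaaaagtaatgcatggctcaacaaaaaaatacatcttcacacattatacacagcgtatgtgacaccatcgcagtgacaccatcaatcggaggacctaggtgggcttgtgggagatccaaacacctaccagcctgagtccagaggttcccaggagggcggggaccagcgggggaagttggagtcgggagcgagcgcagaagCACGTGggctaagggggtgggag
Sema4c: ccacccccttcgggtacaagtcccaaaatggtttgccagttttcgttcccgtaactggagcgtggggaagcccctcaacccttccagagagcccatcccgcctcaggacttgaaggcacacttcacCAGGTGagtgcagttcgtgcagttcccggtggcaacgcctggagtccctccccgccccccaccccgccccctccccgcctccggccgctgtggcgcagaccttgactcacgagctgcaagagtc
Sema7a: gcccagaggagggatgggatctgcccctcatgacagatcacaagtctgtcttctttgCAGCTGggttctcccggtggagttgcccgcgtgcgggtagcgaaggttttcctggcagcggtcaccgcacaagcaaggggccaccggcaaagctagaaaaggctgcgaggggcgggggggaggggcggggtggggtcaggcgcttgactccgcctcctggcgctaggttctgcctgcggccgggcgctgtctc
The E-box, which reads the same on both strands, stood once each in the windows of Sema6d, Sema4c and Sema7a and in neither of the others. It occurred in 66.0% of 27025 promoter windows of this length and in 4 of the 10 members called in a lineage comparison. GTCTAGAC, the palindromic Smad letters, occurred in 0.2% of windows and in 0 of these 10. The shorter CAGAC, searched on both strands, occurred in 42.1% of windows and in 4 of 10. The PU.1 letters GAGGAAGT, on both strands, stood in 2.4% of windows and in 0 of 10. The interferon element, a pair of GAAA repeats set 2 bases apart on either strand, stood in 3.0% of windows and in 1 of 10, Plxnc1. Such matches are descriptions of the sequence and not binding sites.

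All values are log2 intensities. The lineage and in vivo arrays shared a lowest value of 2.25, with 34.0% to 35.2% of probe sets above 5, whereas the TGF-β1 arrays had 54.4% to 56.0% above 5. Levels were therefore compared only within each of these sets. The cDC and pDC arrays carried their markers: all 11 measured cDC markers were above 5 on both cDC arrays (summed level 113.8 to 115.3, against 70.2 to 74.1 in pDC). Of the pDC markers, 9 of 10 were above 5 on both pDC arrays (113.8 to 118.7, against 73.9 to 75.7 in cDC), Tlr9 being the exception. Progenitor markers summed to 72.9 to 75.4 in MPP, 72.1 to 72.9 in CDP, 73.7 to 75.2 in cDC, 57.2 to 62.7 in pDC and 79.2 to 79.8 in in vivo CDP. That list therefore did not set MPP and CDP apart from cDC. T and NK cell markers were at the lowest value on nearly every lineage array, none of 7 above 5 on both arrays of a group. Granulocyte markers summed highest in MPP (109.6 to 115.1, 9 of 9 above 5), lower in CDP (64.3 to 76.5) and near the lowest value in cDC and pDC (28.7 to 30.4, 1 of 9 above 5). On 3 TGF-β1 arrays, replicate 1 at 4, 12 and 24 h, the 3′ minus 5′ signal of Gapdh was 2.09 to 2.78, against 0.01 to 0.10 on the other 7, and that of actin 1.89 to 2.11 against 0.19 to 0.35; these are called the arrays of low 5′ signal. In these bulk samples, fewer cells of a type and less RNA per cell cannot be told apart.

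Most of the family stayed under 5 in the lineage and in vivo samples. A gene was tested where it was above 5 on at least 2 arrays of a fit, which 11 of the 32 members were. On the probe sets used, the other 21 never exceeded 5, the highest value being 4.30, and 18 of them sat at 1 common value on at least 8 of the 10 arrays. They were all 7 class 3 semaphorins, both class 5 semaphorins, Sema6a, Sema6b and Sema6c, Sema4f and Sema4g, all 4 plexins A, Plxnb1, Nrp2 and Plxna4os1. Plxna1, a receptor for Sema6d on dendritic cells, read 2.25 to 2.85, and Plxna4, a receptor for class 3 and class 6 ligands, read 2.40 to 2.88. Nrp2, the neuropilin of Sema3f and of lymphatic endothelium, read 3.81 and 2.34 in cDC and at most 2.29 elsewhere. Among the probe sets not used for these 21 genes, 2 exceeded 5 on some array, each in cDC: another Nrp2 probe set read 6.12 and 3.24 there, and a second Sema4f probe set 8.88 and 9.61.

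The ligands that passed the filter belonged to classes 4, 6 and 7. Sema4a, which dendritic cells present to T cells, stood at 8.55 and 8.17 on the MPP arrays, 8.63 and 8.58 on the CDP arrays, 10.06 and 10.36 on the cDC arrays, 7.25 and 7.48 on the pDC arrays and 9.03 and 9.26 on the in vivo CDP arrays. It was thus highest in cDC and lowest in pDC, with no overlap between them and any other group. Sema4b, a transmembrane ligand of the same class, stood at 6.46 and 5.62 on the MPP arrays, 5.13 and 5.77 on the CDP arrays, 5.06 and 5.85 on the cDC arrays, 9.73 and 9.68 on the pDC arrays and 7.26 and 7.31 on the in vivo CDP arrays. The pDC arrays stood above all others, and MPP, CDP and cDC overlapped. The other Sema4b probe set read 2.59 and 2.25 on the pDC arrays and 2.25 to 2.28 in the other groups. Sema4c, a ligand of plexin B2, stood at 2.87 and 3.20 on the MPP arrays, 4.43 and 4.87 on the CDP arrays, 7.26 and 7.87 on the cDC arrays, 9.20 and 8.76 on the pDC arrays and 7.62 and 7.39 on the in vivo CDP arrays. Both MPP and CDP stayed under 5, pDC was highest, and cDC overlapped with in vivo CDP.

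Sema4d, the lymphocyte semaphorin CD100, stood at 8.57 and 8.64 on the MPP arrays, 9.67 and 9.78 on the CDP arrays, 10.76 and 10.51 on the cDC arrays, 11.12 and 11.03 on the pDC arrays and 9.82 and 10.42 on the in vivo CDP arrays. Its groups did not overlap, from MPP at the bottom to pDC at the top. Sema6d, a ligand of plexin A1, stood at 2.74 and 2.25 on the MPP arrays, 7.44 and 8.17 on the CDP arrays, 8.99 and 8.90 on the cDC arrays, 8.17 and 8.39 on the pDC arrays and 2.74 and 2.25 on the in vivo CDP arrays. It was near the lowest value in MPP and in CDP taken from the animal, and well above 5 in the 3 other cultured groups. The other Sema6d probe sets stayed at 2.25 to 3.42 on all these arrays. Sema7a, which binds plexin C1 and the integrin of alpha1 and beta1 chains, stood at 2.54 and 2.27 on the MPP arrays, 2.27 and 2.48 on the CDP arrays, 5.29 and 4.87 on the cDC arrays, 7.67 and 6.35 on the pDC arrays and 2.44 and 2.48 on the in vivo CDP arrays. Only pDC had both arrays above 5.

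Among the receptors, Plxnb2, the receptor of Sema4c, stood at 4.90 and 5.63 on the MPP arrays, 8.65 and 8.43 on the CDP arrays, 9.39 and 9.44 on the cDC arrays, 8.32 and 8.64 on the pDC arrays and 9.02 and 9.14 on the in vivo CDP arrays. MPP lay below every other group. Plxnc1, the receptor of Sema7a, stood at 8.34 and 7.81 on the MPP arrays, 9.38 and 8.55 on the CDP arrays, 12.26 and 11.63 on the cDC arrays, 10.53 and 10.08 on the pDC arrays and 8.62 and 9.36 on the in vivo CDP arrays. It was highest in cDC and second in pDC. Plxnd1, which binds Sema3e and Sema4a, stood at 6.58 and 6.79 on the MPP arrays, 6.23 and 5.68 on the CDP arrays, 7.63 and 7.84 on the cDC arrays, 6.13 and 7.07 on the pDC arrays and 8.13 and 8.08 on the in vivo CDP arrays. The pDC arrays overlapped with those of MPP and CDP. Plxnb3 stayed between 4.08 and 5.38 on these 10 arrays, 4 of them at a common value of 5.06, and was called in no comparison. Nrp1, the co-receptor, stood at 9.80 and 9.35 on the MPP arrays, 11.96 and 11.63 on the CDP arrays, 11.96 and 11.49 on the cDC arrays, 11.69 and 11.70 on the pDC arrays and 10.90 and 11.18 on the in vivo CDP arrays. CDP, cDC and pDC overlapped, in vivo CDP lay below them and MPP lowest.

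**Figure D1:**
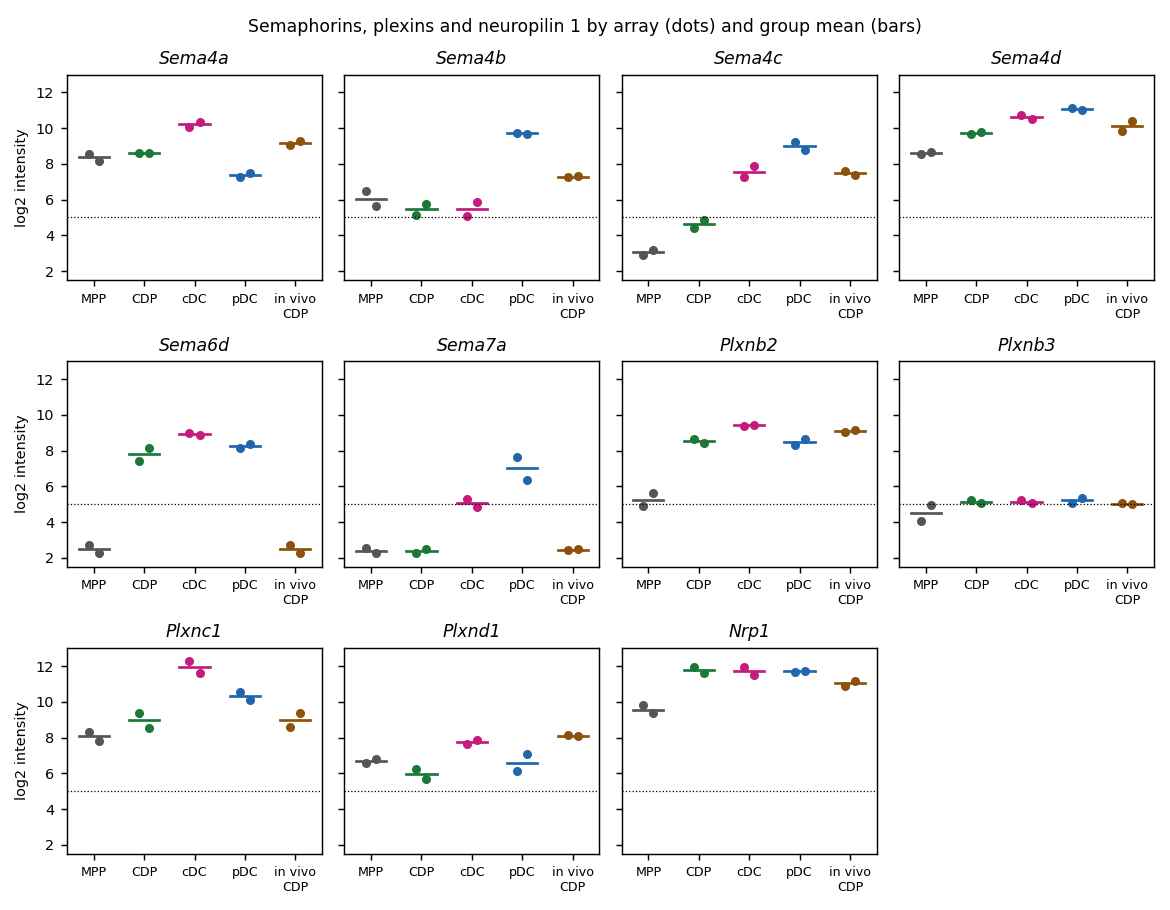
Log2 intensity (vertical axis) of the 11 members above 5 on at least 2 arrays, by group. Dots are arrays, bars are means of 2 arrays and the dotted line marks 5. Sema6d is near the lowest value in MPP and in vivo CDP only, Sema4b is highest in pDC at 9.73 and 9.68, and Plxnc1 is highest in cDC at 12.26 and 11.63.

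The first comparison asks what differs as progenitors become committed to the dendritic lineage. From MPP to CDP, 5 of the 11 tested members rose and none fell: Sema6d, Plxnb2, Nrp1, Sema4c and Sema4d. Sema6d rose by at least 6.99-fold (log2 difference 5.31, SE 0.28, adjusted p = 0.000126). Here "at least" marks a fold taken against 5 because the lower group had no array above 5, while the p-value tests the whole deposited difference. Plxnb2 was 9.68-fold higher (3.28, SE 0.27, adjusted p = 0.000701) and Nrp1 4.68-fold higher (2.23, SE 0.25, adjusted p = 0.00239). Sema4d was 2.18-fold higher (1.12, SE 0.17, adjusted p = 0.00902). Sema4c differed by 1.61 (SE 0.29, adjusted p = 0.0187), but it was under 5 on all 4 arrays and no fold is given. Over all 8900 genes tested, 7.51% were called, 3.99% higher and 3.52% lower, and the median difference was 0, against 0.89 for the tested members. The tests are limma's moderated tests, two-sided, with Benjamini-Hochberg adjustment over all genes tested and a threshold of 0.05.

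Plxnc1 (0.89, adjusted p = 0.24), Plxnd1 (-0.73, adjusted p = 0.295), Sema4a (0.24, adjusted p = 0.619) and Sema4b (-0.59, adjusted p = 0.478) did not pass from MPP to CDP in limma's test. Mast cell and basophil markers had a summed level of 49.1 to 52.4 in MPP (6 of 6 above 5) and 20.1 to 20.8 in CDP (1 of 6), and granulocyte markers were also lower in CDP; their part in the member differences was not tested. Sema4d was not called without MPP replicate 1 (1.08, adjusted p = 0.0829 in limma) or MPP replicate 2 (1.16, adjusted p = 0.0641), so each left 3 members called. Sema4c was not called without CDP replicate 2 (1.39, adjusted p = 0.094), MPP replicate 1 (1.45, adjusted p = 0.144) or MPP replicate 2 (1.78, adjusted p = 0.0811), nor with values under 5 raised to 5 or without the filter on low values (adjusted p = 0.0761). The mean of all Sema4d probe sets gave 0.69 (adjusted p = 0.43). The Sema6d difference rests on the probe set used, since its other probe sets read 2.25 to 2.48 on the MPP and CDP arrays. Sema6d passed the filter only through CDP, cDC and pDC arrays.

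Among 44 partner genes of the pathway, 42 were measured and 25 tested on these arrays, and 3 rose from MPP to CDP with none falling. Rnd3, a small GTPase that acts on plexin signalling, was at least 5.77-fold higher (3.96, SE 0.68, limma adjusted p = 0.0155). The others were Rras2, a relative of the R-Ras that plexins inactivate (at least 3.40-fold), and Itga1, the alpha1 integrin chain of the Sema7a receptor (3.97-fold). The median of the tested partners was 0.30. Of all genes tested, 3.99% were called higher, 3.52% lower and 7.51% in all.

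**Figure D2:**
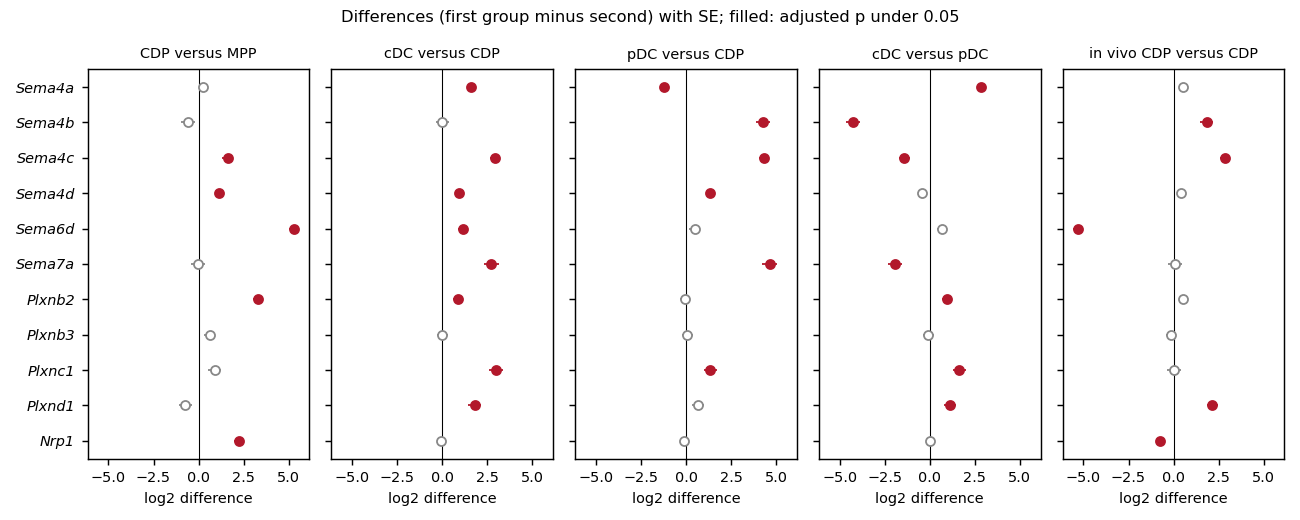
Log2 difference of the first group minus the second (horizontal axis) for the 11 tested members, with bars of 1 SE. Filled points have an adjusted p under 0.05 in limma. The points for Sema4b and Sema4a lie on opposite sides of 0 in the comparison of cDC with pDC, at -4.25 and 2.84, and Nrp1 lies near 0 in both comparisons of dendritic cells with CDP.

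The comparison of cDC with CDP asks what accompanies differentiation into conventional dendritic cells. Of 11 tested members, 8 were higher in cDC and none was lower, while 18.7% of all tested genes were called higher, 29.3% lower and 48.0% in all. Sema4c and Sema7a, both among the 8, passed the filter only through cDC and pDC arrays. Their calls are therefore not independent of the filter. Receptors and ligands both rose. Plxnc1 was 7.88-fold higher (2.98, SE 0.37, limma adjusted p = 0.00103), Plxnd1 3.45-fold (1.79, SE 0.34, adjusted p = 0.00533) and Plxnb2 1.84-fold (0.88, SE 0.27, adjusted p = 0.0321). Among ligands, Sema4c was at least 5.93-fold higher (2.92, SE 0.29, adjusted p = 0.000445) and Sema4a 3.05-fold (1.61, SE 0.21, adjusted p = 0.00115). Sema6d was 2.20-fold (1.14, SE 0.28, adjusted p = 0.0159) and Sema4d 1.88-fold higher (0.91, SE 0.17, adjusted p = 0.00483). Sema7a differed by 2.71 (SE 0.41, adjusted p = 0.00221), a fold of at least 1.06, since its cDC arrays read 5.29 and 4.87. Nrp1 (-0.07, adjusted p = 0.837) and Sema4b (0.01, adjusted p = 0.993) did not pass. The median was 1.14 for the tested members and -0.16 for all genes.

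The summed level of the cDC markers was 43.3 to 52.8 in CDP (1 of 11 above 5) and 113.8 to 115.3 in cDC, and monocyte and macrophage markers read 69.4 to 76.6 in CDP (6 of 9 above 5) and 81.1 to 87.7 in cDC (8 of 9). Whether monocyte-lineage cells contribute to the member differences was not tested. Plxnb2 was not called in limma when any 1 of the 4 arrays was left out: CDP replicate 1 (0.98, adjusted p = 0.062), CDP replicate 2 (0.77, adjusted p = 0.131), cDC replicate 1 (0.90, adjusted p = 0.0962) or cDC replicate 2 (0.85, adjusted p = 0.115). Sema6d was not called without CDP replicate 1 (0.77, adjusted p = 0.0618), cDC replicate 1 (1.09, adjusted p = 0.0689) or cDC replicate 2 (1.18, adjusted p = 0.0577), and Sema7a differed by 0.15 with values under 5 raised to 5. Without the filter on low values Plxnb2 (adjusted p = 0.0812) and Sema6d (adjusted p = 0.0519) were not called, and the mean of all Sema4d probe sets gave 0.65 (adjusted p = 0.225).

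Of the 25 tested partner genes, 12 were higher and 2 lower in cDC than in CDP, with a median of 0.69. Of all genes tested, 18.7% were called higher, 29.3% lower and 48.0% in all. L1cam, the adhesion molecule that partners neuropilin 1, was 18.0-fold higher (4.17, SE 0.62, limma adjusted p = 0.00209). Cd72, the Sema4d receptor of lymphocytes and dendritic cells, read 7.15 and 6.27 in CDP and 11.10 and 10.33 in cDC, a 16.1-fold difference (4.01, SE 0.36, adjusted p = 0.00031). Rnd3 was 9.29-fold higher. The lower genes were Vegfc, a VEGF that binds neuropilin 2 (5.12-fold), and Gsk3b, a kinase of semaphorin signalling (1.65-fold).

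In the comparison of pDC with CDP, class 4 and class 7 ligands differed most. Of 11 tested members, 5 were higher and 1 was lower, where 21.7% of all genes were higher, 31.6% lower and 53.2% called in all. Here too Sema4c and Sema7a are among those higher and passed the filter only through cDC and pDC arrays. Sema4c was at least 15.8-fold higher (4.33, SE 0.29, limma adjusted p = 6.87e-05), Sema4b 19.1-fold (4.26, SE 0.38, adjusted p = 0.000201) and Sema7a at least 4.03-fold (4.64, SE 0.41, adjusted p = 0.00019). Sema4d was 2.55-fold higher (1.35, SE 0.17, adjusted p = 0.000716), and Plxnc1 was the only receptor that rose, by 2.52-fold (1.34, SE 0.37, adjusted p = 0.0196). Sema4a was 2.35-fold lower (-1.23, SE 0.21, adjusted p = 0.00247). Nrp1 (-0.10, adjusted p = 0.746), Plxnb2 (-0.06, adjusted p = 0.872), Plxnd1 (0.65, adjusted p = 0.147) and Sema6d (0.47, adjusted p = 0.2) did not pass. The median was 0.65 for the members and -0.14 for all genes, or 0.02 for all genes after centring each array on its median. This comparison shares its CDP arrays with the previous one.

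The pDC arrays differed from each other in monocyte and macrophage markers, with summed levels of 59.9 on array 1 and 82.7 on array 2, and in Sema7a and Plxnd1 as given above; a link between them was not tested. Plxnc1 was not called in limma without CDP replicate 2 (0.92, adjusted p = 0.104) or pDC replicate 1 (1.11, adjusted p = 0.0998), or without the filter on low values (adjusted p = 0.0717). The mean of all Sema4d probe sets gave 1.07 (adjusted p = 0.0611). The other Sema4b probe set read 2.59 and 2.25 in pDC and 2.25 on both CDP arrays. Plxnd1 was called higher without pDC replicate 1 (1.12, adjusted p = 0.0267) and Sema6d without CDP replicate 2 (0.84, adjusted p = 0.0499).

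Among 25 tested partners, 12 were higher and 3 lower in pDC than in CDP, with a median of 0.57. Of all genes tested, 21.7% were called higher, 31.6% lower and 53.2% in all. Fyn, a Src-family kinase of plexin signalling, read 9.78 and 9.43 in CDP and 13.33 and 13.30 in pDC, a 13.1-fold difference (3.71, SE 0.36, limma adjusted p = 0.000258). Rnd3 was 10.3-fold and L1cam 5.26-fold higher. Itga1 was at least 5.64-fold lower (-5.09, SE 0.46, adjusted p = 0.000209). Met, a receptor tyrosine kinase that associates with plexins B, was at least 7.26-fold lower, and Gsk3b was 1.52-fold lower.

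The direct comparison of cDC with pDC divided the family by member. In all, 4 ligands of classes 4 and 7 and 3 plexins were called: 4 of 11 members were higher in cDC and 3 higher in pDC, while 12.8% and 12.7% of all genes were called in these directions and 25.5% in all. Sema4a was 7.18-fold higher in cDC (2.84, SE 0.21, limma adjusted p = 0.000149), Plxnc1 3.12-fold (1.64, SE 0.37, adjusted p = 0.0174), Plxnd1 2.20-fold (1.14, SE 0.34, adjusted p = 0.0481) and Plxnb2 1.91-fold (0.94, SE 0.27, adjusted p = 0.0425). Sema4b was 19.0-fold higher in pDC (cDC minus pDC -4.25, SE 0.38, adjusted p = 0.000384), Sema7a 3.81-fold (-1.93, SE 0.41, adjusted p = 0.014) and Sema4c 2.66-fold (-1.41, SE 0.29, adjusted p = 0.0124). Nrp1 (0.03, adjusted p = 0.948), Sema4d (-0.44, adjusted p = 0.102) and Sema6d (0.66, adjusted p = 0.141) did not pass.

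Only the calls of Sema4a and Sema4b held in limma under each array left out in turn. Plxnb2 was not called without cDC replicate 1 (0.96, adjusted p = 0.134), cDC replicate 2 (0.91, adjusted p = 0.147), pDC replicate 1 (0.77, adjusted p = 0.195) or pDC replicate 2 (1.10, adjusted p = 0.0776). Plxnd1 was not called without cDC replicate 1 (1.24, adjusted p = 0.124), cDC replicate 2 (1.03, adjusted p = 0.179) or pDC replicate 1 (0.67, adjusted p = 0.205). Plxnc1 was not called without cDC replicate 1 (1.33, adjusted p = 0.102) or pDC replicate 2 (1.42, adjusted p = 0.0902), Sema4c without cDC replicate 1 (-1.10, adjusted p = 0.0719) or pDC replicate 1 (-1.20, adjusted p = 0.0785), and Sema7a without cDC replicate 2 (-1.72, adjusted p = 0.08). Median centring moved the median of all genes from 0 to -0.15 and ended the calls of Plxnb2 (0.79, adjusted p = 0.0751) and Plxnd1 (0.99, adjusted p = 0.0606). Without the filter on low values Plxnb2 (adjusted p = 0.103), Plxnd1 (adjusted p = 0.135), Plxnc1 (adjusted p = 0.0707) and Sema7a (adjusted p = 0.0647) were not called.

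The 25 tested partners divided evenly between cDC and pDC, with 4 higher in each. Of all genes tested, 12.8% were called higher in cDC, 12.7% higher in pDC and 25.5% in all. Itga1 (at least 7.13-fold), Met (at least 10.2-fold) and Cd72 (3.78-fold) led the genes higher in cDC. Vegfc (7.26-fold), Fyn (5.83-fold) and Tyrobp, the adaptor of the Trem2 complex with plexin A1 (2.03-fold), led those higher in pDC.

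A further comparison sets CDP isolated from bone marrow against CDP amplified in culture. The leading difference was Sema6d, at least 6.99-fold lower in in vivo CDP (-5.31, SE 0.29, limma adjusted p = 1.24e-05), where it read 2.74 and 2.25. This difference rests on the probe set used. The other Sema6d probe sets read 2.25 to 2.48 on the CDP and in vivo CDP arrays alike. In all, 3 of 11 members were higher and 2 lower, beside 27.6% and 19.5% of all 9121 genes tested, or 47.1% together. Sema4c was at least 5.68-fold higher in vivo (2.86, SE 0.28, adjusted p = 0.000151), Plxnd1 4.43-fold (2.15, SE 0.31, adjusted p = 0.00103) and Sema4b 3.57-fold (1.84, SE 0.35, adjusted p = 0.00362). Nrp1 was 1.69-fold lower (-0.76, SE 0.24, adjusted p = 0.0306). In this fit Sema6d passed the filter only through CDP, cDC and pDC arrays, and Sema4c only through cDC, pDC and in vivo CDP arrays. The calls of Sema6d and Sema4c are therefore not independent of the filter. Sema4a (0.55, adjusted p = 0.0549), Plxnb2 (0.54, adjusted p = 0.11), Sema4d (0.39, adjusted p = 0.17) and Plxnc1 (0.02, adjusted p = 0.975) did not pass.

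The 2 kinds of CDP also differed in RNA kit, in the amount of RNA labelled (50 ng against 1 µg) and in labelling kit, so source and method cannot be told apart. Granulocyte markers were higher in in vivo CDP, with summed levels of 91.2 to 103.4 (9 of 9 above 5) against 64.3 to 76.5 (6 of 9) in cultured CDP, and their part was not tested. The Nrp1 call was lost in limma without CDP replicate 1 (-0.59, adjusted p = 0.142), in vivo CDP replicate 1 (-0.62, adjusted p = 0.153) or in vivo CDP replicate 2 (-0.90, adjusted p = 0.0606), or without the filter on low values (adjusted p = 0.064). Sema4d was called higher without in vivo CDP replicate 1 (0.69, adjusted p = 0.0392). The 3 other Nrp1 probe sets differed by -0.06, -0.33 and -0.85 and none was called. The other probe set of Sema4a was called higher in vivo (1.78, adjusted p = 0.00282), unlike the one used.

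Among 25 tested partners, 12 were higher and 5 lower in in vivo CDP, beside 27.6% and 19.5% of all genes, or 47.1% together. L1cam (9.63-fold), Met (6.40-fold) and Limk1, the kinase that phosphorylates cofilin downstream of semaphorins (5.00-fold), led the higher genes. Itga1 (at least 5.64-fold), Vegfc (3.47-fold) and Fyn (1.98-fold) led the lower genes.

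The TGF-β1 series asks how the family moves in CDP over the first day of treatment. Nrp1, Sema4b and Sema6d were higher at 24 h, and no member fell. Nrp1 read 10.21 and 10.17 at 0 h, 10.28 and 9.52 at 4 h, 10.20 and 10.20 at 8 h, 10.57 and 10.21 at 12 h, and 11.25 and 11.60 at 24 h. Both 24 h arrays lay above all 8 others, among which the times overlapped. Sema4b read 7.08 and 6.80 at 0 h, 7.69 and 6.84 at 4 h, 7.37 and 7.22 at 8 h, 8.67 and 7.70 at 12 h, and 9.99 and 8.78 at 24 h. Its 8 h and 12 h arrays lay above those at 0 h and its 24 h arrays lay highest. Sema6d read 8.11 and 8.60 at 0 h, 8.63 and 8.53 at 4 h, 8.48 and 8.55 at 8 h, 9.30 and 8.78 at 12 h, and 10.16 and 9.56 at 24 h. Here too the 24 h arrays stood above every earlier one.

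At 24 h against 0 h, Sema4b was 5.43-fold higher (2.44, SE 0.47, limma adjusted p = 0.00941), Sema6d 2.83-fold (1.5, SE 0.27, adjusted p = 0.00692) and Nrp1 2.36-fold (1.24, SE 0.26, adjusted p = 0.0144). These were 3 of the 24 members tested on the TGF-β1 arrays, where 19.3% of 12655 genes were called and 10.8% were higher, so the members' share was close to that of all genes called higher and is not a result about the members. The median was 0.05 for the members and 0 for all genes. At 4, 8 and 12 h limma called 0 of 24 members, with 0, 1 and 4 at an unadjusted p under 0.05, while 0.648%, 1.55% and 5.38% of all genes were called. Against 4 h, limma called 4 members higher at 24 h, these 3 and Sema4c, with 12.8% of all genes called and 7.61% higher. Over all times together, a moderated F test called Nrp1 (adjusted p = 0.0401) and Sema6d (adjusted p = 0.038) but not Sema4b (adjusted p = 0.0505), with 9.74% of all genes called. The other 3 Nrp1 probe sets were also higher at 24 h (1.67, 1.17 and 1.55, adjusted p = 0.0212, 0.00935 and 0.012), whereas the mean over all Sema6d probe sets gave 0.38 (adjusted p = 0.0736).

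Without 0 h replicate 1 no member was called at 24 h in limma (Nrp1 1.26, adjusted p = 0.083; Sema4b 2.58, adjusted p = 0.0523; Sema6d 1.26, adjusted p = 0.0635). Without 0 h replicate 2, Nrp1 (1.21, adjusted p = 0.0943) and Sema4b (2.30, adjusted p = 0.0742) were not called. Nrp1 was not called without 24 h replicate 2 (1.06, adjusted p = 0.0741), nor Sema4b without 24 h replicate 1 (1.83, adjusted p = 0.0503), where Plxnd1 was called (1.33, adjusted p = 0.0244). In the F test fewer members were called when any array of 0, 8, 12 or 24 h was left out, and more without either 4 h array. The number of all genes called by that test moved the same way each time, so these changes are not a result about the members.

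**Figure D3:**
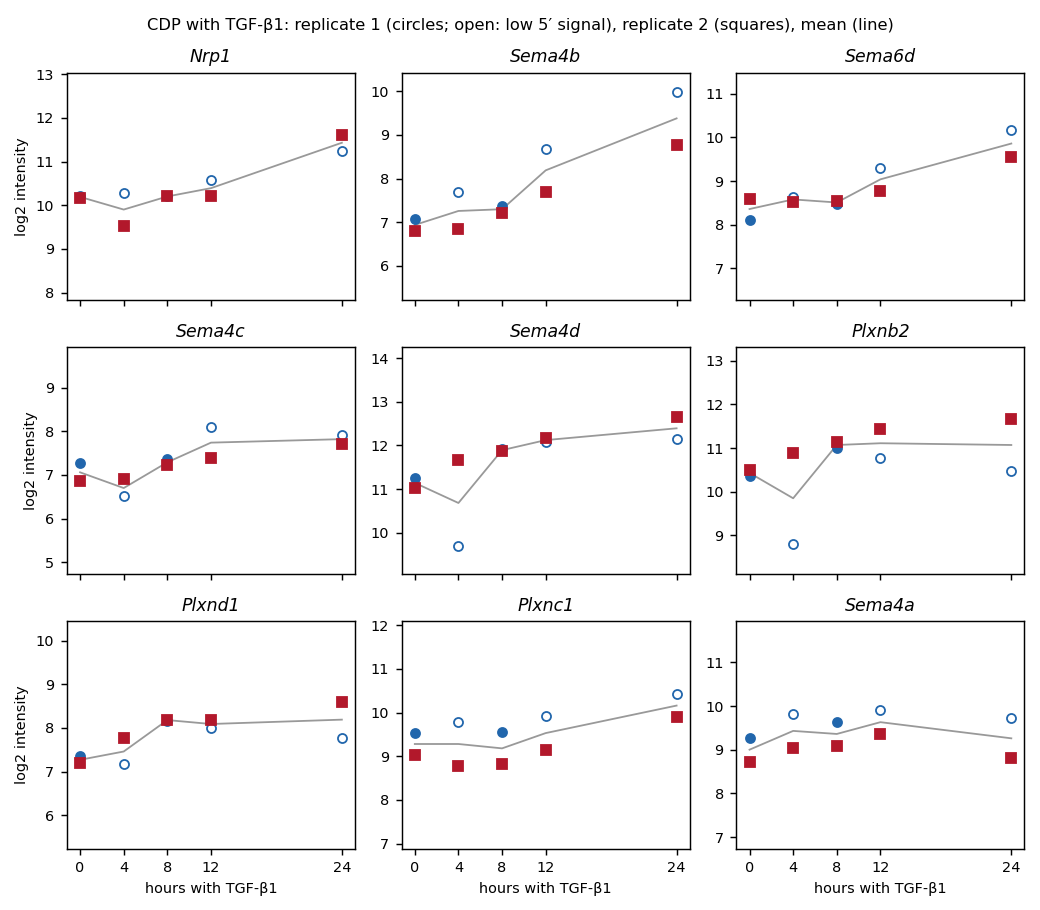
Log2 intensity (vertical axis) of 9 members against hours with TGF-β1. Circles are replicate 1, open where the array had low 5′ signal, squares are replicate 2 and the line joins the means of 2 arrays. The arrays at 24 h stand above those at 0 h for Nrp1, Sema4b, Sema6d, Sema4c, Sema4d, Plxnd1 and Plxnc1. Of these, limma called Nrp1, Sema4b and Sema6d at 24 h over all arrays. Replicate 1 at 4 h is low for Sema4d (9.69) and Plxnb2 (8.80).

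Sema4d and Plxnb2 were low on replicate 1 at 4 h, the first of the 3 arrays of low 5′ signal. Sema4d read 11.26 and 11.03 at 0 h, 9.69 and 11.67 at 4 h, 11.92 and 11.87 at 8 h, 12.08 and 12.16 at 12 h, and 12.14 and 12.64 at 24 h. Plxnb2 read 10.36 and 10.50 at 0 h, 8.80 and 10.89 at 4 h, 11.01 and 11.14 at 8 h, 10.78 and 11.44 at 12 h, and 10.47 and 11.67 at 24 h. Apart from replicate 1 at 4 h and, for Plxnb2, at 24 h, every treated array was above both 0 h arrays for these genes. Plxnd1 read 7.35 and 7.19 at 0 h, 7.17 and 7.76 at 4 h, 8.17 and 8.19 at 8 h, 8.00 and 8.18 at 12 h, and 7.78 and 8.60 at 24 h, above 0 h from 8 h on. Over all arrays, limma called none of them at 24 h: Sema4d differed by 1.25 (adjusted p = 0.153), Plxnb2 by 0.64 (adjusted p = 0.569) and Plxnd1 by 0.92 (adjusted p = 0.0655).

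Without the 3 arrays of low 5′ signal, the single arrays left at 4, 12 and 24 h are assumed to vary like the rest. More members and more of all genes were then called, so the larger counts are not a result about the members. At 8 h limma called 3: Plxnd1 (0.91, adjusted p = 0.00813), Sema4d (0.75, adjusted p = 0.0197) and Plxnb2 (0.65, adjusted p = 0.0283), with 9.73% of all genes called in that fit. At 12 h these genes (Plxnd1 0.91, Sema4d 1.02, Plxnb2 1.01) and Sema4b (0.76, adjusted p = 0.0387) were called, with 12.9% of genes. At 24 h it was 7 members, Sema4b (1.83), Sema4d (1.5), Nrp1 (1.41), Plxnd1 (1.33), Plxnb2 (1.24), Sema6d (1.20) and Sema4c (0.66, adjusted p = 0.0499), with 31.9% of genes. At 4 h, without 4 h replicate 2, which leaves an array of low 5′ signal, Sema4d was called lower by limma (-1.45, adjusted p = 0.0161).

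TGF-β1 arrays with the same replicate number deviated together (correlations 0.27 to 0.85), but the labels state no pairing. The correlations were 0.67 to 0.85 among 4, 12 and 24 h, whose replicate 1 arrays had low 5′ signal. For the other pairs of times they were 0.27 to 0.54. A shared culture and shared low 5′ signal cannot be told apart, so the replicate number is only an alternative. Used as a block, it raised the calls over all genes as well as among members, so the larger counts are not a result about the members. With the number as a block, limma called 2 members at 12 h, Sema4b (1.24, adjusted p = 0.0192) and Sema4a (0.63, adjusted p = 0.0343), with 12.1% of all genes. At 24 h it called 6, with 30.1% of genes: Nrp1 (adjusted p = 0.00633), Sema4b (adjusted p = 0.000367) and Sema6d (adjusted p = 0.00309), and also Plxnc1 (0.88, adjusted p = 0.00484), Plxnd1 (0.92, adjusted p = 0.0214) and Sema4c (0.76, adjusted p = 0.0442). Plxnc1 read 9.54 and 9.03 at 0 h, 9.78 and 8.77 at 4 h, 9.55 and 8.82 at 8 h, 9.92 and 9.14 at 12 h, and 10.43 and 9.90 at 24 h, with replicate 1 higher at each time. Sema4a read 9.27 and 8.72 at 0 h, 9.82 and 9.04 at 4 h, 9.63 and 9.09 at 8 h, 9.91 and 9.35 at 12 h, and 9.72 and 8.81 at 24 h, again with replicate 1 higher. Sema4c read 7.28 and 6.85 at 0 h, 6.51 and 6.90 at 4 h, 7.36 and 7.23 at 8 h, 8.10 and 7.39 at 12 h, and 7.92 and 7.72 at 24 h. The 12 h and 24 h arrays of Sema4c lay above both 0 h arrays.

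**Figure D4:**
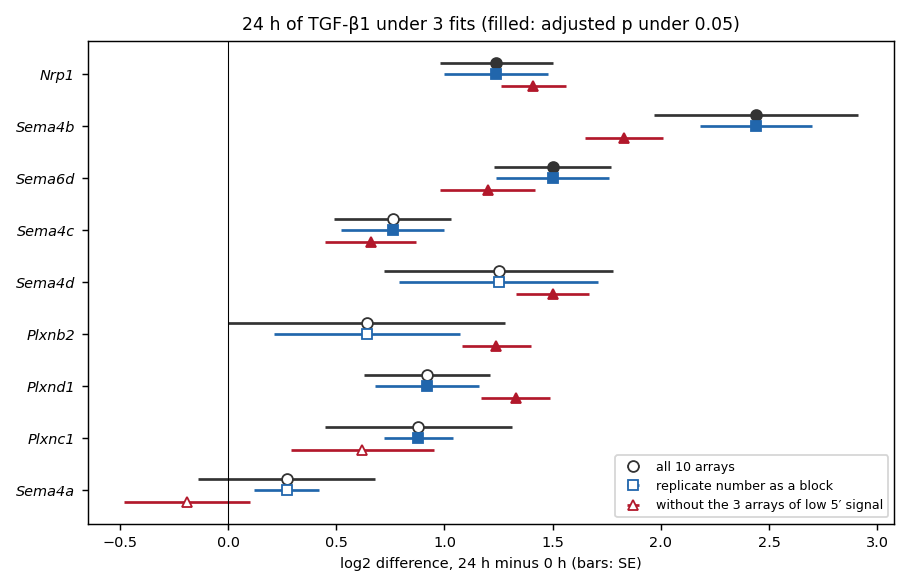
Log2 difference at 24 h minus 0 h (horizontal axis) for 9 members under 3 fits, with bars of 1 SE. Filled symbols have an adjusted p under 0.05 in limma. Nrp1, Sema4b and Sema6d are filled in each fit, and Sema4d and Plxnb2 only without the 3 arrays of low 5′ signal.

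The members that stayed under 5 on the lineage arrays gave no call in the TGF-β1 series. These 21 read 2.92 to 9.78 there, on arrays with a higher general level. Of the 13 tested, none was called at any time against 0 h (differences -0.34 to 0.30, smallest adjusted p in limma 0.34). Plxna1 ranged from 6.21 to 6.68 over the 10 arrays, Plxna4 from 5.97 to 6.60 and Nrp2 from 5.26 to 5.73. Sema7a, which was higher in cDC and pDC than in CDP, ranged from 5.13 to 5.44 with a 24 h difference of 0 (adjusted p = 0.992).

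Of the partner genes, Rnd3 was called from 8 h on. It read 8.98 and 8.50 at 0 h, 7.16 and 7.08 at 4 h, and 7.07 and 6.42 at 8 h. Both 4 h arrays already lay below those at 0 h, although the 4 h difference was not called. Rnd3 was 3.98-fold lower at 8 h (-1.99, SE 0.28, limma adjusted p = 0.0156), 5.28-fold at 12 h and 3.73-fold at 24 h. No other of the 36 tested partners was called at 8 h, and none was called at 4 h by limma. At 12 h, 2 rose, Dpysl2, the collapsin response mediator CRMP2 (2.76-fold), and Mical1, an oxidase that binds plexin A (1.96-fold), and Rnd3 alone fell. Of all genes, 1.55% were called at 8 h and 5.38% at 12 h. At 24 h, 5 of the 36 rose and 2 fell, beside 19.3% of all genes called, a share near the partners' own, and the median was 0.14. Cd72, the Sema4d receptor, read 8.98 and 8.39 at 0 h and 10.74 and 11.47 at 24 h, a 5.34-fold rise (2.42, SE 0.30, adjusted p = 0.00147). Dpysl2 was 3.72-fold and Mical1 2.56-fold higher at 24 h. Met fell from 7.90 and 7.83 to 5.59 and 4.91, by 6.12-fold (-2.61, SE 0.42, adjusted p = 0.00442).

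Cell type markers were summed over the same series. The cDC markers read 72.3 to 74.1 at 0 h (8 of 11 above 5) and 94.0 to 96.5 at 24 h (10 of 11), and the pDC markers 71.4 to 73.3 (9 of 10) and 74.4 to 80.7 (9 of 10). Granulocyte markers read 69.2 to 69.9 at 0 h (9 of 9) and 60.8 to 60.9 at 24 h (8 of 9). Monocyte and macrophage markers read 74.3 to 75.0 at 0 h (6 of 9) and 65.8 to 67.0 at 24 h (6 of 9). Progenitor markers read 80.0 to 83.2 at 0 h and 86.1 to 86.5 at 24 h (8 of 8 at both times). The part of these differences in the rise of Nrp1, Sema4b and Sema6d was not tested. In the lineage arrays, Nrp1 did not pass in cDC (-0.07) or pDC (-0.10) against CDP, Sema4b did not differ between cDC and CDP beyond the spread and was 19.1-fold higher in pDC, and Sema6d was 2.20-fold higher in cDC.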

How the data were processed

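Total RNA was hybridised to Affymetrix mouse arrays, 20 in all. The authors deposited log2 probe set intensities, made with GCRMA per the submitters' processing notes, which name no version. Per the labels' protocols, a One-Cycle kit labelled 1 µg of RNA from the 4 lineage groups, and a 3′ IVT Express kit labelled 250 ng in the TGF-β1 series and 50 ng from in vivo CDP. The 10 TGF-β1 arrays do not share the lowest value of the rest, and the reason was not found in the labels.

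Of 45101 probe sets, 64 were array controls, 34945 had 1 symbol in a platform annotation of 2016, 932 several and 9160 none. The 32 members had 79 probe sets, and all 32 matched RefSeq's table by symbol. The deposited values were not rescaled. Models were fitted in R 4.3.3 with limma 3.58.1 (lmFit, then eBayes without trend or robust) to 3 sets of arrays: 8 of the lineage groups, 10 of the TGF-β1 series, and, for in vivo CDP, 10 with the shared lowest value. Genes above 5 on at least 2 arrays of a fit were tested, with Benjamini-Hochberg adjustment. The number of arrays limits the precision. The script was tested on simulated data.

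The members and all lists were chosen with earlier results of these data known. Every member is accounted for. Values on each array, or their range where a gene stayed low or flat, are given for Nrp1, Nrp2, plexins A1, A4, B2, C1 and D1, Sema4a, Sema4d, Sema6d and Sema7a, and for members called with arrays that did not overlap and a difference of at least 1 (TGF-β1: 0.5). Of the partner genes, up to 3 per direction and comparison are named, by size of difference and with no overlap between arrays. Same-numbered arrays deviated together in the TGF-β1 series (correlations 0.27 to 0.85) and not throughout the one-cycle arrays (-0.06 to 0.57). Alternatives were the filter, scaling, a raised lowest value, the choice of probe set, eBayes settings, the replicate block, the fit's arrays and each array left out.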

Additional observations from a re-analysis of the deposited data

Results flagged for a closer look

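In the TGF-β1 series, the change against 0 h differed between 24 h and 4 h for 4 members by limma's test of 24 h against 4 h, which called 12.8% of all genes. This difference of changes was 2.12 for Sema4b (adjusted p = 0.0246), 1.53 for Nrp1 (adjusted p = 0.0101), 1.28 for Sema6d (adjusted p = 0.02) and 1.12 for Sema4c (adjusted p = 0.0333). With 1 array left out, the calls were lost for Sema4b without 24 h replicate 1 (1.51, adjusted p = 0.108 in limma) or 4 h replicate 2 (1.69, adjusted p = 0.0599), Nrp1 without 24 h replicate 2 (1.35, adjusted p = 0.0596) and Sema6d without 24 h replicate 1 (0.98, adjusted p = 0.0973). For Sema4c they were lost without 24 h replicate 1 (1.02, adjusted p = 0.135), 24 h replicate 2 (1.22, adjusted p = 0.0923) or 4 h replicate 1 (0.93, adjusted p = 0.105). Replicate 1 at both times had low 5′ signal, and without the 3 such arrays Sema4c was not called (0.83, adjusted p = 0.0555 in limma).

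A second Sema4f probe set, which the rule of 1 probe set per gene left out, had a mean of 9.25 in cDC. It read 8.88 and 9.61 there, 2.25 to 2.26 on the other 8 lineage and in vivo arrays and 3.20 to 3.71 on the TGF-β1 arrays. The cDC minus CDP difference was 6.99 (SE 0.25). This probe set was picked for its high values and passed the filter only through its cDC arrays, so no p-value is given. The Sema4f probe set used in the comparisons read 4.30 and 3.04 in cDC and 2.61 elsewhere.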

How the results depend on the processing

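Of 38 called differences of single members, 17 were called under every alternative in which the gene was tested. With the mean of all probe sets, Sema6d and Sema7a failed the filter on the lineage arrays. That alternative is therefore not counted for their lineage and in vivo differences. Over 152 values with 1 array left out, 109 kept their call and 43 lost it, and over 369 values from the other alternatives 346 kept it and 23 lost it, with no reversal in either. Counts of called members moved by over 1.5 times in these cases. Without the filter on low values, cDC against pDC gave 3. With median centring, the F test over all times gave 0. With the mean of all probe sets of a gene, CDP against MPP gave 3. The replicate block ended the Plxnd1 call in cDC against pDC (adjusted p = 0.0543 in limma). It moved member counts by over 1.5 times only at 12 h, at 24 h and in the F test of the TGF-β1 series. That series then gave 2 at 12 h, 6 at 24 h and 5 in the F test, beside 2580 of 12655 genes. Without the 3 arrays of low 5′ signal it gave 3 at 8 h, 4 at 12 h, 7 at 24 h and 6 in the F test; why the remaining choices moved these counts was not tested. With each array left out in turn, the counts ranged from 3 to 5 for CDP against MPP, 6 to 7 for cDC against CDP, 6 to 6 for pDC against CDP, 3 to 5 for cDC against pDC and 4 to 5 for in vivo CDP against CDP. They ranged from 0 to 1 at 4 h, 0 to 0 at 8 h and 12 h, 0 to 3 at 24 h, 1 to 5 at 24 h against 4 h and 0 to 5 in the F test. Fewer arrays leave fewer residual degrees of freedom. The F test also called more of all genes without the 3 arrays of low 5′ signal than on all arrays. Over all genes, calls at 4, 8, 12 and 24 h were 82, 196, 681 and 2438, with the block 153, 567, 1534 and 3810, without the 3 arrays 142, 1213, 1603 and 3971, and with 1 array left out 17 to 1320, 41 to 58, 118 to 194 and 936 to 1724. With 1 array left out, all-gene calls were 205 to 468 for CDP against MPP (668 on all arrays), 1262 to 1600 for cDC against pDC (2273) and 2817 to 3677 for in vivo CDP against CDP (4298). Values at the shared lowest value have no order, so differences that start there rest on a bound.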
